A study of Mus musculus with 27 samples.

Results

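The genes described here are 37 components of apoptosis, necroptosis and the inflammasome, taken by symbol from the 55483 genes of the count table. They comprise 5 members of the death receptor complex, 6 further caspases and apoptosome components, 7 anti-apoptotic BCL2 proteins, 2 pore formers, 6 BH3-only proteins, 3 inhibitor of apoptosis (IAP) proteins, 2 necroptosis effectors and 6 inflammasome and pyroptosis genes. The cells were RAW264.7, an established macrophage line of the mouse. The cells received DMSO (the vehicle), LPS+DMSO (called LPS here) or LPS+TM7nox, and were harvested at 6 h. LPS, the bacterial lipopolysaccharide that signals through TLR4, was used at 1 µg/ml. TM7nox is a tanshinone mimic, a class of compounds made to disturb the binding of the RNA-binding protein HuR to its mRNAs, and the labels give 10 µM for such compounds. No group received TM7nox without LPS. Each treatment had 4 libraries of total RNA, 4 of RNA immunoprecipitated with anti-HuR (RIP) and 1 of RNA recovered with control IgG. Total RNA came from cell pellets and RIP from NP-40 lysates. All libraries are of 1 line, and nothing in the labels says that replicates are separate cultures, so p-values measure the spread between these samples, which may be technical.

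Apoptosis is started from outside the cell by death receptors, which activate caspase 8 through the adaptor FADD, or from within by mitochondria, where BCL2 family proteins decide whether cytochrome c escapes to build the apoptosome with caspase 9. Necroptosis is a lytic death executed by RIPK3 and MLKL when caspase 8 is inactive, and pyroptosis is a lytic death in which inflammasome sensors activate caspase 1, which cleaves gasdermin D. LPS is the usual priming signal for the inflammasome in macrophages and also raises survival genes, and HuR binds U-rich and AU-rich stretches, mostly in 3′ UTRs.

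The stretches of 3′ UTR richest in T are shown because they set mRNAs with a high ratio of RIP to RNA beside those with the lowest. Each line is the window of 30 bases with the most T in the 3′ UTR of the canonical transcript, read 5′ to 3′ in the sense of the mRNA, with runs of at least 3 T in capitals. The first 5 are among the 6 members with the highest RIP over RNA in DMSO (Pmaip1, the other, ranks between Casp2 and Pycard and its sequence is not shown), and the last 5 are the members called lowest. The place of Pycard, a gene of few counts, rests on RIP DMSO replicate 2. Its log2 ratio was 2.65 with that library and 1.93 without it, which is below the 2.10 of Bcl2 in all libraries, and it was not called over IgG (FDR 0.065).
Tnfrsf10b: ttgTTTTTTgTTTgTTTTTaaTTTTTTatt
Cflar: TTTgTTTgTTTgTTTgTTTgTTTTTTgTTT
Casp2: ctgTTTTgttgttgTTTTTTTataTTTTct
Pycard: TTTTTTTTTTTTTaattatgtgtggaTTTT
Xiap: ttcacTTTaTTTTTTcaTTTTTTTctgTTT
Cycs: aTTTTTTTTTTgttgTTTTggacctaTTTT
Casp1: gaatccagttcattcttatgtacctatgct
Ripk3: tgactcttgacccatctccttaaagtcaat
Bcl2a1d: ttgtcTTTccagagttgcagataTTTTgtt
Casp4: aaTTTgTTTTaTTTaTTTgtgtacataaat
On GRCm39 the windows lie at chr14:70020929-70020958 (plus strand, exon 8) for Tnfrsf10b, chr1:58794190-58794219 (plus strand, exon 10) for Cflar, chr6:42259172-42259201 (plus strand, exon 11) for Casp2, chr7:127591229-127591258 (minus strand, exon 3) for Pycard and chrX:41194648-41194677 (plus strand, exon 7) for Xiap. Those of the low group lie at chr6:50540943-50540972 (minus strand, exon 3) for Cycs, chr9:5307183-5307212 (plus strand, exon 10) for Casp1, chr14:56022474-56022503 (minus strand, exon 10) for Ripk3, chr9:88605379-88605408 (minus strand, exon 2) for Bcl2a1d and chr9:5336743-5336772 (plus strand, exon 9) for Casp4. The windows of Tnfrsf10b and Cflar hold 24 T each and those of Casp2, Pycard and Xiap 22 each, against 12 in Casp1, 10 in Ripk3, 15 in Bcl2a1d and 17 in Casp4. Cycs stands apart from the low group with 21 T. A longer 3′ UTR offers more windows to choose from, so these counts are not free of length.

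The libraries held 2728534 to 41449233 counts. RNA DMSO replicate 1 stood apart as the shallowest at 2728534 counts, against 16258731 to 28285856 in the other RNA libraries. Macrophage markers summed to 3610 to 7090 CPM (counts scaled to the size of the library, on a common TMM scale) in the RNA libraries, although 2 of the 12 markers, Cd163 and Marco, were at or near 0 and Mertk was at most 1.12 CPM. The summed markers of fibroblasts, epithelium and T cells stayed at or below 0.385 CPM in every RNA library. Granulocyte markers summed to at most 0.103 CPM in DMSO, 1.56 to 3.51 CPM after LPS and 0.0949 to 0.477 CPM after LPS+TM7nox. B cell markers summed to at most 0.225 CPM in RNA of DMSO cells, 1.78 to 3.98 CPM after LPS and 1.61 to 4.30 CPM after LPS+TM7nox, with Pax5 reaching 4.27 CPM. In RIP the B cell sums were 0.152 to 0.643 CPM in DMSO, 11.8 to 16.9 CPM after LPS and 14.5 to 32.5 CPM after LPS+TM7nox. Endothelial sums were at most 2.97 CPM in RNA, and in RIP 0.753 to 1.52 CPM in DMSO, 3.65 to 5.69 CPM after LPS and 3.25 to 4.77 CPM after LPS+TM7nox. The part of these markers in the results below was not tested. The 37 genes took 0.130% to 0.174% of the counts in RNA of DMSO cells, 0.308% to 0.334% after LPS and 0.268% to 0.292% after LPS+TM7nox. Bik, a BH3-only protein, was at 0 to 1.48 CPM and was the only member removed by the filter on low counts, leaving 36 tested.

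After LPS, 22 of the 36 tested members changed in total RNA, 18 upward and 4 downward, against 42.0% of all genes tested (20.2% higher and 21.7% lower). The death receptor Fas, the caspase 8 inhibitor Cflar, the anti-apoptotic Bcl2l1 and the 3 Bcl2a1 genes, the necroptosis effector Mlkl and 5 of the 6 inflammasome genes were raised. Bcl2, Pmaip1, Casp2 and Casp9 were lower. The members' median log2 fold change was 0.553, beside -0.0417 over all genes tested. The members were chosen with earlier results of these data known. Calls are at an adjusted p (FDR) under 0.05 from edgeR's quasi-likelihood test over all genes. Fewer cells and less RNA per cell cannot be told apart in such bulk samples.

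**Figure D1:**
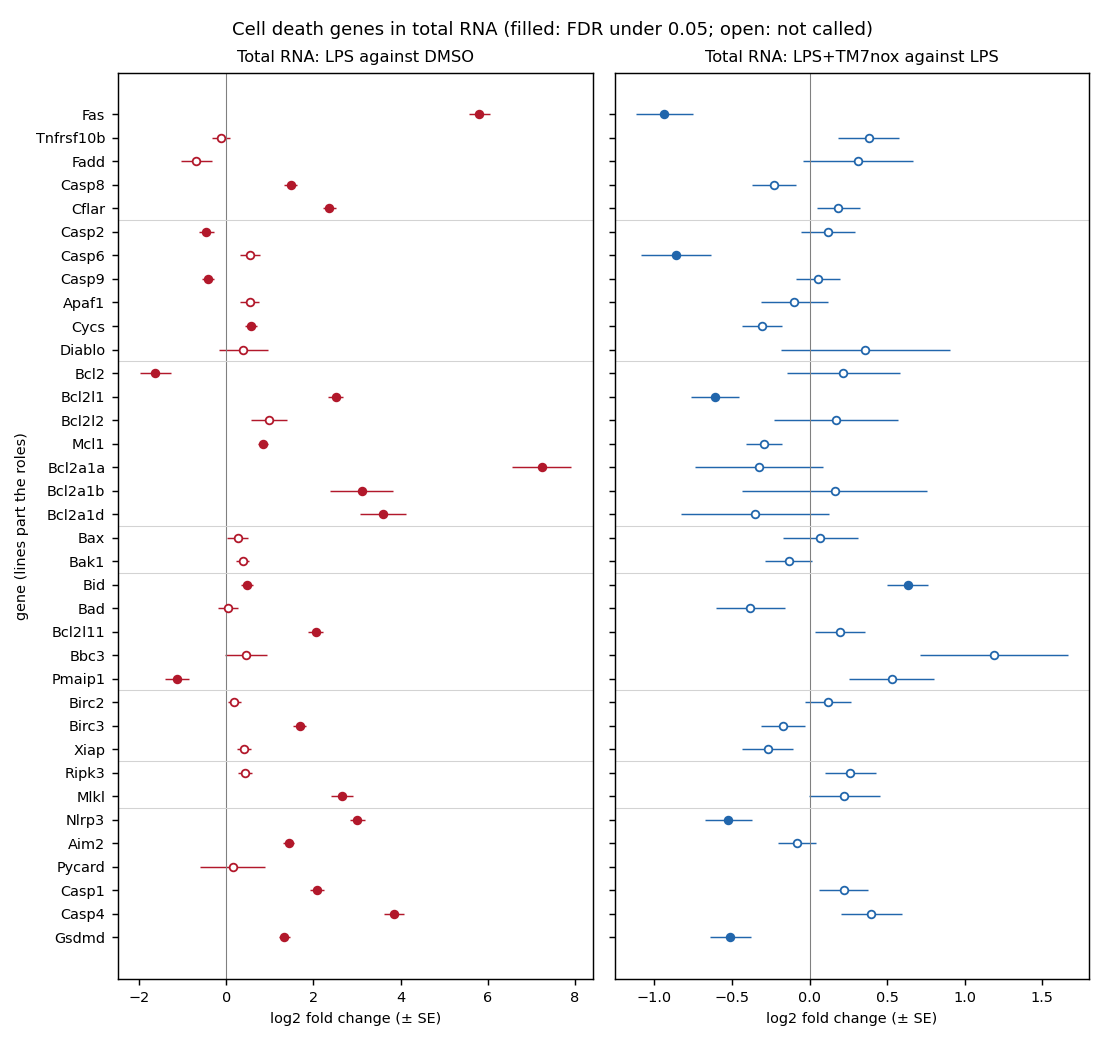
Log2 fold change with its standard error for 36 genes in total RNA, LPS against DMSO (left) and LPS+TM7nox against LPS (right), with filled points for calls at an adjusted p under 0.05. Fas and Bcl2a1a lie farthest to the right on the left panel at 5.81 and 7.24, while most points on the right panel are open and near 0 (Pycard, with 0 counts in LPS+TM7nox, is left off that panel).

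Among the death receptor genes, Fas, the receptor for Fas ligand (GRCm39 chromosome 19, 34268001 to 34305173, plus strand), had the largest change by LPS. It stood at 1.70, 1.36, 1.86 and 1.25 CPM in DMSO (replicates 1 to 4), at 95.0, 97.1, 73.3 and 78.1 CPM in LPS and at 62.9, 36.3, 38.6 and 41.7 CPM in LPS+TM7nox. Every LPS library lay above every library of both other groups, and every LPS+TM7nox library lay above every DMSO library. The log2 change was 5.81 ± 0.24 (SE, n = 4 per group) for LPS over DMSO (FDR 1.09e-09) and -0.94 ± 0.18 for LPS+TM7nox over LPS (FDR 0.00348). Cflar encodes c-FLIP, a catalytically dead relative of caspase 8 that holds it in check (chromosome 1, 58750321 to 58798047, plus strand). Cflar was at 64.2, 52.1, 50.2 and 50.2 CPM in DMSO, at 256, 307, 304 and 272 CPM in LPS and at 251, 342, 352 and 346 CPM in LPS+TM7nox. All libraries with LPS were above all DMSO libraries, and those with and without TM7nox overlapped. The rise with LPS was 2.36 ± 0.15 on the log2 scale (FDR 2.45e-08), and the further change of 0.18 ± 0.14 with TM7nox was not called (FDR 0.45). Casp8, the initiator caspase of the complex, rose by 1.48 ± 0.15 (FDR 2.08e-06), from 37.6 to 56.0 CPM in DMSO to 118 to 138 CPM in LPS. Neither the TRAIL receptor Tnfrsf10b (-0.12, FDR 0.668) nor the adaptor Fadd (-0.69, FDR 0.138) was called.

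The caspases and apoptosome parts outside that complex moved little. Cycs, cytochrome c, was at 72.1, 125, 95.8 and 99.9 CPM in DMSO, at 130, 158, 150 and 155 CPM in LPS and at 114, 120, 119 and 126 CPM in LPS+TM7nox. The LPS libraries were above those of both other groups, and the log2 rise with LPS was 0.56 ± 0.13 (FDR 0.00283). Apaf1, the scaffold of the apoptosome, was at 18.2, 23.6, 31.1 and 26.9 CPM in DMSO, at 29.9, 33.3, 45.2 and 41.5 CPM in LPS and at 21.2, 31.9, 43.6 and 42.9 CPM in LPS+TM7nox. The 3 groups overlapped, while LPS was above DMSO in 4 of 4 same-numbered pairs. Apaf1 was not called without a replicate block (log2 0.54, FDR 0.0606) and was called with one (FDR 0.000649). Casp6, an executioner caspase, was at 5.30, 6.77, 5.50 and 6.51 CPM in DMSO, at 10.9, 11.8, 7.00 and 6.17 CPM in LPS and at 5.78, 5.28, 4.05 and 4.59 CPM in LPS+TM7nox. Only LPS replicates 1 and 2 stood clearly above DMSO (FDR 0.073), whereas all LPS+TM7nox libraries lay below all LPS libraries. Casp2 and Casp9, an initiator caspase of stress responses and the apoptosome caspase, were lower by calls close to the threshold (log2 -0.46 with FDR 0.0462 and -0.42 with FDR 0.0289). The Casp2 call was lost without any 1 of DMSO replicates 2, 3 and 4 and LPS replicates 3 and 4 (FDR 0.0717 to 0.145), and with DESeq2 (FDR 0.0632). The Casp9 call was lost without any 1 of DMSO replicates 2 and 4 and LPS replicates 1 to 4 (FDR 0.0513 to 0.105). Neither was called without the filter on low counts (FDR 0.153 and 0.237). Diablo, which antagonises IAP proteins, was at most 1.95 CPM and was not called, and its exons overlap those of Gm49027 by 3509 bases on the same strand.

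The anti-apoptotic BCL2 proteins hold the pore formers inactive, and 5 of 7 rose while Bcl2 fell. Bcl2a1a was at 0, 0.129, 0 and 0.197 CPM in DMSO, at 6.16, 15.1, 25.3 and 19.6 CPM in LPS and at 6.61, 9.32, 17.9 and 18.6 CPM in LPS+TM7nox. Bcl2a1d was at 1.48, 16.1, 9.97 and 12.5 CPM in DMSO, at 46.3, 141, 175 and 164 CPM in LPS and at 40.1, 92.7, 139 and 138 CPM in LPS+TM7nox. For both genes every library with LPS was above every DMSO library, replicate 1 was the lowest of LPS and of LPS+TM7nox, and the groups with and without TM7nox overlapped. The log2 changes for LPS were 7.24 ± 0.68 for Bcl2a1a (FDR 1.3e-06), 3.59 ± 0.53 for Bcl2a1d (FDR 9.25e-05) and 3.11 ± 0.72 for Bcl2a1b (FDR 0.00316). Without DMSO replicate 4 the Bcl2a1a value was 7.86. Bcl2a1a was near 0 CPM in DMSO and passed the filter on low counts only through the groups with LPS. Its fold is therefore not an exact size. The coding sequences of the 3 paralogs are 519 bases each and 97.9% to 98.8% identical, so their reads may have been split between them and the separate values are uncertain. On the same strand, exons of Bcl2a1b also overlap those of Gm29094 by 401 bases, and exons of Bcl2l2 overlap those of Gm20521 by 594 bases. Bcl2l1, which encodes BCL-XL (chromosome 2, 152622582 to 152673655, minus strand), was at 43.9, 52.6, 33.2 and 31.1 CPM in DMSO, at 217, 220, 260 and 238 CPM in LPS and at 129, 157, 165 and 160 CPM in LPS+TM7nox. The 3 groups did not overlap, and the log2 changes were 2.51 ± 0.17 for LPS (FDR 4.64e-08) and -0.61 ± 0.16 for TM7nox (FDR 0.0188). Mcl1, a short-lived survival protein, rose by 0.84 ± 0.12 (FDR 5.28e-05), and Bcl2l2 was not called (0.98, FDR 0.0689; 0.0208 with a replicate block). Bcl2 itself fell by 1.63 on the log2 scale (SE 0.36, FDR 0.00214), from 1.48 to 4.73 CPM in DMSO to 0.755 to 1.84 CPM in LPS, with DMSO replicate 1 inside the LPS range.

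The pore formers, which open the outer mitochondrial membrane, were not called. Bak1 was at 56.2, 58.9, 43.5 and 41.3 CPM in DMSO, at 61.7, 74.7, 67.3 and 60.6 CPM in LPS and at 59.3, 73.2, 53.8 and 53.6 CPM in LPS+TM7nox. Bax was at 5.94, 9.32, 11.1 and 12.3 CPM in DMSO, at 7.57, 10.2, 14.3 and 16.2 CPM in LPS and at 14.2, 9.06, 13.0 and 14.4 CPM in LPS+TM7nox. LPS and DMSO did not overlap for Bak1 (log2 0.37, FDR 0.0611; 0.00415 with a replicate block), and they overlapped for Bax (0.26, FDR 0.431).

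Of the BH3-only proteins, which sense damage and neutralise the anti-apoptotic members, Bcl2l11 and Bid rose and Pmaip1 fell. Bcl2l11, encoding BIM, was at 18.7, 14.3, 12.6 and 10.5 CPM in DMSO, at 58.2, 53.1, 63.9 and 58.2 CPM in LPS and at 61.1, 57.9, 75.5 and 72.4 CPM in LPS+TM7nox. The rise of 2.06 ± 0.17 (log2, FDR 4.21e-07) separated all libraries with LPS from all without. Pmaip1, encoding NOXA, was at 63.0, 28.4, 28.9 and 32.4 CPM in DMSO, at 22.9, 16.1, 13.7 and 18.1 CPM in LPS and at 34.3, 22.5, 25.6 and 19.7 CPM in LPS+TM7nox. Its LPS libraries lay below all DMSO libraries (log2 -1.13 ± 0.28, FDR 0.00456), and LPS+TM7nox overlapped both. In same-numbered pairs, LPS+TM7nox was below DMSO in 4 of 4 and above LPS in 4 of 4. Against DMSO it was not called (log2 -0.60, FDR 0.089) but was with a replicate block (-0.54, FDR 0.00584). Bid, which links caspase 8 to mitochondria (chromosome 6, 120862525 to 120894171, minus strand), was at 40.3, 38.1, 41.2 and 36.9 CPM in DMSO, at 67.6, 49.0, 56.0 and 48.5 CPM in LPS and at 78.3, 98.2, 86.0 and 79.9 CPM in LPS+TM7nox. The 3 groups were apart from each other, with log2 changes of 0.47 ± 0.13 for LPS (FDR 0.0111) and 0.63 ± 0.13 for TM7nox (FDR 0.00565). Exons of Bid share 3059 bases with Bcl2l13 on the other strand, and whether the counting used strand is not given in the sources used here. Bcl2l13 was not called in either comparison (log2 -0.15 and -0.00), and whether its reads entered the counts of Bid was not tested. Bad (0.04, FDR 0.91) and Bbc3, encoding PUMA (0.45, FDR 0.498), were not called.

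Birc3, the IAP protein that ubiquitinates RIP kinases, was at 13.6, 19.5, 19.6 and 19.0 CPM in DMSO, at 53.1, 61.5, 62.6 and 60.4 CPM in LPS and at 38.3, 57.9, 57.7 and 56.7 CPM in LPS+TM7nox. All libraries with LPS were above DMSO (log2 1.68 ± 0.15, FDR 6.86e-07). Xiap, the direct caspase inhibitor, was at 88.6, 79.1, 63.0 and 58.4 CPM in DMSO, at 81.5, 111, 101 and 96.1 CPM in LPS and at 64.4, 97.9, 82.2 and 78.0 CPM in LPS+TM7nox. Its groups overlapped and neither Xiap (0.40, FDR 0.0671; 0.0284 with a replicate block) nor Birc2 (0.19, FDR 0.36) was called. In the necroptosis pair the effector moved and the kinase did not pass the test. Mlkl was at 32.4, 16.5, 13.5 and 13.0 CPM in DMSO, at 113, 119, 116 and 120 CPM in LPS and at 120, 144, 139 and 141 CPM in LPS+TM7nox, a rise with LPS of 2.65 ± 0.25 (log2, FDR 1.3e-06). Ripk3 was at 11.0, 13.0, 13.5 and 15.7 CPM in DMSO, at 14.8, 16.6, 21.1 and 21.4 CPM in LPS and at 24.7, 16.3, 25.2 and 22.3 CPM in LPS+TM7nox. DMSO and LPS overlapped for Ripk3 (0.43, FDR 0.051; 0.0199 with a replicate block).

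Inflammasome genes were raised by LPS except for the adaptor. Casp4, the mouse caspase 11 that binds cytosolic LPS, was at 4.24, 5.82, 3.31 and 3.78 CPM in DMSO, at 45.6, 82.1, 59.8 and 67.0 CPM in LPS and at 62.5, 99.6, 83.2 and 88.8 CPM in LPS+TM7nox. Nlrp3, the sensor (chromosome 11, 59432394 to 59457782, plus strand), was at 41.1, 41.6, 35.7 and 31.6 CPM in DMSO, at 289, 274, 342 and 326 CPM in LPS and at 255, 156, 220 and 224 CPM in LPS+TM7nox. For both, all libraries with LPS were above all DMSO libraries, and for Nlrp3 all LPS+TM7nox libraries were below all LPS libraries. The log2 rises with LPS were 3.86 ± 0.23 for Casp4 (FDR 1.68e-08) and 3.01 ± 0.17 for Nlrp3 (FDR 8.25e-09). Casp1 rose by 2.08 ± 0.17 (FDR 2.89e-07) and the DNA sensor Aim2 by 1.44 ± 0.13 (FDR 7.73e-07). Gsdmd, the pore protein of pyroptosis, was at 44.1, 33.8, 34.8 and 34.4 CPM in DMSO, at 92.7, 83.6, 95.2 and 106 CPM in LPS and at 56.9, 65.0, 74.0 and 68.3 CPM in LPS+TM7nox. Its 3 groups did not overlap, with log2 changes of 1.33 ± 0.13 for LPS (FDR 2.35e-06) and -0.51 ± 0.13 for TM7nox (FDR 0.0174). Pycard, the ASC adaptor that joins sensors to caspase 1, was near the detection limit. It had 0, 0.540, 0.418 and 0.197 CPM in DMSO, 0.812, 0.451, 0.137 and 0.156 CPM in LPS and 0 in all 4 LPS+TM7nox libraries, which is 40, 42 and 0 counts per group. DMSO and LPS were not told apart (FDR 0.899).

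**Figure D2:**
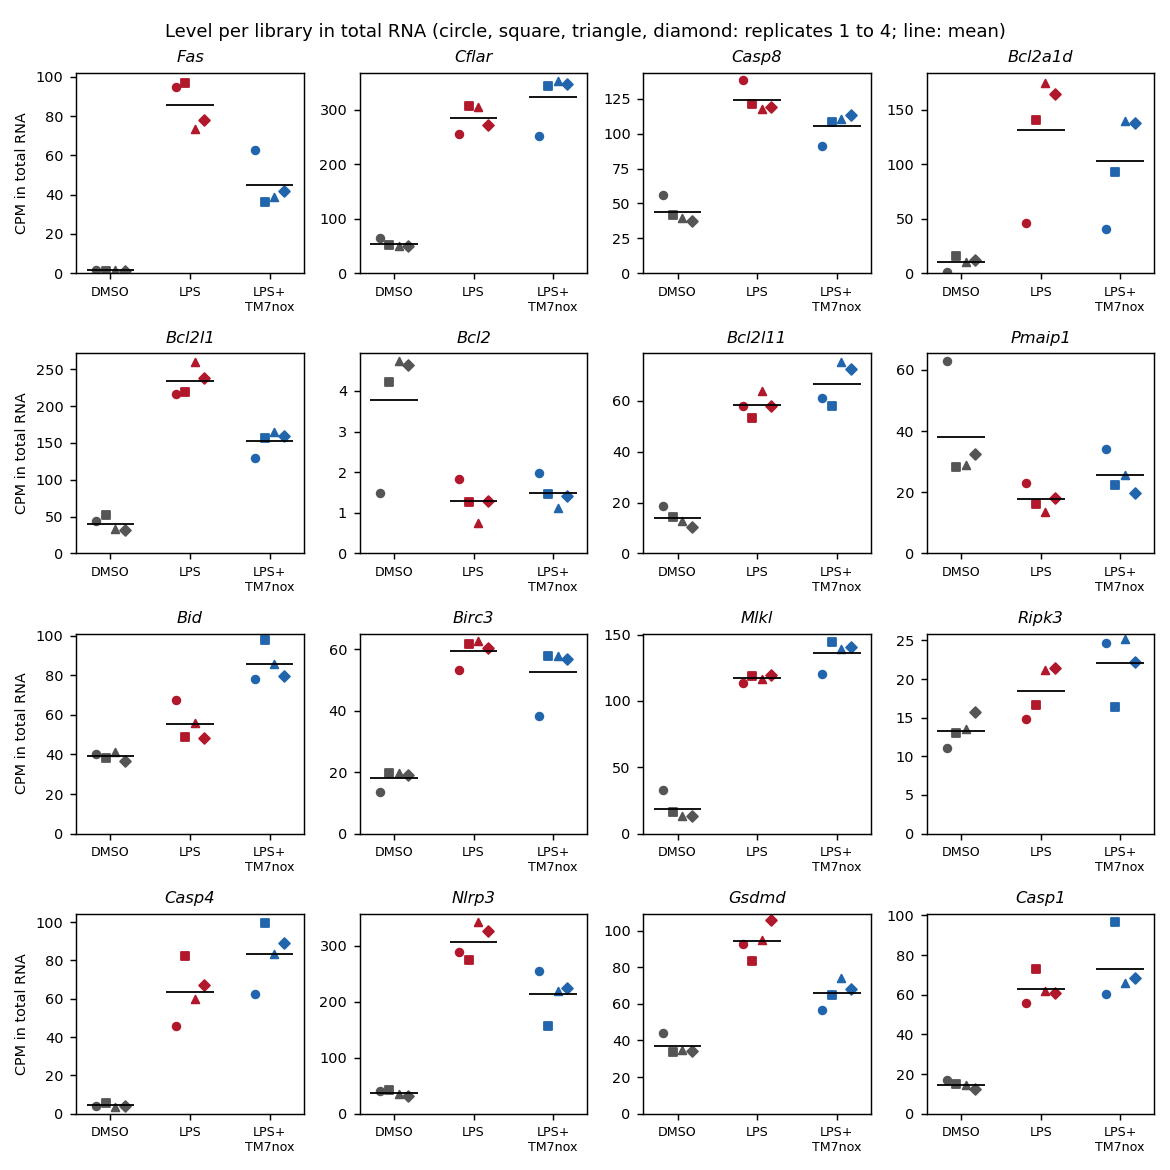
CPM in each total RNA library for 16 genes, with marker shapes for replicates 1 to 4 and a line at the mean of each group. Fas, Bcl2l1, Nlrp3 and Gsdmd show LPS above both other groups without overlap, while Cflar, Mlkl and Casp4 stay high in LPS+TM7nox.

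Adding TM7nox to LPS changed 7 of the 36 members in total RNA, against 13.8% of all genes tested (7.37% higher and 6.40% lower). Bid rose, and Fas, Bcl2l1, Casp6, Gsdmd, Nlrp3 and Pycard fell. Of the 18 genes raised by LPS, Fas, Bcl2l1, Nlrp3 and Gsdmd were lower with TM7nox and were called above DMSO in LPS+TM7nox (log2 4.87, 1.90, 2.48 and 0.82 for LPS+TM7nox over DMSO). The 4 LPS libraries serve in both comparisons, so a high LPS value moves the changes by LPS and by TM7nox in opposite directions. Casp6 fell by 0.86 on the log2 scale (SE 0.23, FDR 0.0201) and Nlrp3 fell by 0.52 (SE 0.15, FDR 0.0345). Pycard, pooled over the LPS group, was 12.5-fold above a floor of 3 counts in LPS+TM7nox, where it had 0 (FDR 0.0106). This rests on 42 counts in the LPS group and is no bound for single libraries, since LPS replicates 3 and 4 were at 0.137 and 0.156 CPM. In RIP, with 96 counts in LPS and 38 in LPS+TM7nox, its log2 change of -1.29 was not called (FDR 0.16, and 0.0498 with a replicate block). LPS+TM7nox against DMSO, which shares libraries with both comparisons above, gave 23 members called, 20 higher and 3 lower, against 47.3% of all genes (23.7% higher and 23.6% lower).

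Some of these TM7nox calls were lost when single libraries were left out, although the direction stayed. The Bcl2l1 call was lost without LPS replicate 3 (log2 -0.56, FDR 0.0555) or LPS+TM7nox replicate 1 (-0.54, FDR 0.0539). That of Gsdmd was lost without LPS replicate 4 (-0.46, FDR 0.0595). In the runs that follow, the log2 change was -0.71 to -0.83 for Casp6 and -0.40 to -0.54 for Nlrp3. The Casp6 call was lost without LPS replicate 1 (FDR 0.0586) or 2 (0.0768), or without LPS+TM7nox replicate 3 (0.0676) or 4 (0.061). The Nlrp3 call was lost without LPS replicate 1 (FDR 0.0534), 3 (0.0948) or 4 (0.0831), or without LPS+TM7nox replicate 2 (0.0825), 3 (0.0714) or 4 (0.0688). Fas, Bid and Pycard kept their calls when any 1 library was left out, although the Pycard value moved to -5.78 (fitted log2, from -6.38) without LPS replicate 1. With replicates 1 and 2 alone no member was called (0 of 36 by edgeR, 7 at an unadjusted p under 0.05), and with a replicate block 12 were, against the 7 without one. The share of all genes called rose likewise with the block, from 13.8% to 25%, and was 1.35% with replicates 1 and 2 alone. The 5 added under the block were Bbc3 (log2 1.43, FDR 0.00355), Casp4 (0.41, FDR 0.0119), Mcl1 (-0.30, FDR 0.0149), Pmaip1 (0.53, FDR 0.0178) and Cycs (-0.30, FDR 0.0312).

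Levels of different genes were compared per length of exon, taken as the union of the exons of all annotated transcripts of the gene. The order therefore depends on the annotation, and which transcripts the cells used was not tested. Per kilobase, in total RNA of DMSO cells, Mcl1 was the highest member at 63.8 ± 5.94 CPM per kb (SD, n = 4), above Cycs at 25.1 ± 5.56 and Bak1 at 20.8 ± 3.68, which overlap within their spread. In LPS, Bcl2a1d (152 ± 67.7) and Mcl1 (117 ± 5.05) led and did not differ beyond their spread, ahead of Nlrp3 (75.8 ± 7.82) and Bcl2l1 (45.5 ± 3.89). Casp8 and Cycs followed at 40.3 and 37.9 CPM per kb. The least abundant in LPS were Bcl2 (0.139), Pycard (0.0919) and Bik (0.00788), in CPM per kb.

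Promoters of the members were searched because Fas, Casp4, Nlrp3 and others rose together. The kappaB consensus was matched on either strand within 250 bases before and 50 after the start site in RefSeq's promoters on GRCm38.p6. It was present in 3 of 17 LPS-raised members with an entry (17.6%), in 2 of 16 other members (12.5%) and in 9.55% of all 27025 genes. A narrower form of the kappaB motif was found in 0 of the 17 and 0 of the 16, against 0.466% of all genes. The core of the interferon response element (ISRE) was in 1 of the 17 (5.88%) and 0 of the 16, against 3.99% of all genes. Casp4 held 3 matches to the kappaB consensus, of which a pair overlap. The first of its promoter entries, at chr9:5308599-5308898 of GRCm38.p6 (plus strand), is shown for that reason, with the matches in capitals.
Casp4: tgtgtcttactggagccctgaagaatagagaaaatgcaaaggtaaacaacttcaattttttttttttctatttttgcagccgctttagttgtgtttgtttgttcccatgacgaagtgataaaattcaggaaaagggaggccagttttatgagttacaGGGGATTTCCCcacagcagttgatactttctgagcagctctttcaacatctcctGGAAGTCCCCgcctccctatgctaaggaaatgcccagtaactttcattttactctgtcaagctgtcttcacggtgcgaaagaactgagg
The matches begin 93, 92 and 39 bases before the start site. A match describes the letters of the window and is not evidence of binding, and genes without a match may hold one elsewhere.

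Recovery with anti-HuR differed widely between the members, about as widely as between all genes tested. In DMSO cells, 29 of 36 differed between RIP and total RNA, 14 higher and 15 lower, against 70.4% of all genes tested (5300 higher and 4775 lower of 14311). The absolute log2 difference had a median of 1.27 over the members and 1.22 over all genes. The values are relative to the typical gene, since the scaling assumes that most genes have equal levels, and carry no absolute recovery. Of the death receptor complex, Tnfrsf10b, Cflar, Casp8 and Fadd were higher and Fas lower, the initiator caspases Casp2 and Casp9 were higher, and the inflammatory caspases Casp1 and Casp4 and the necroptosis genes were lower.

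**Figure D3:**
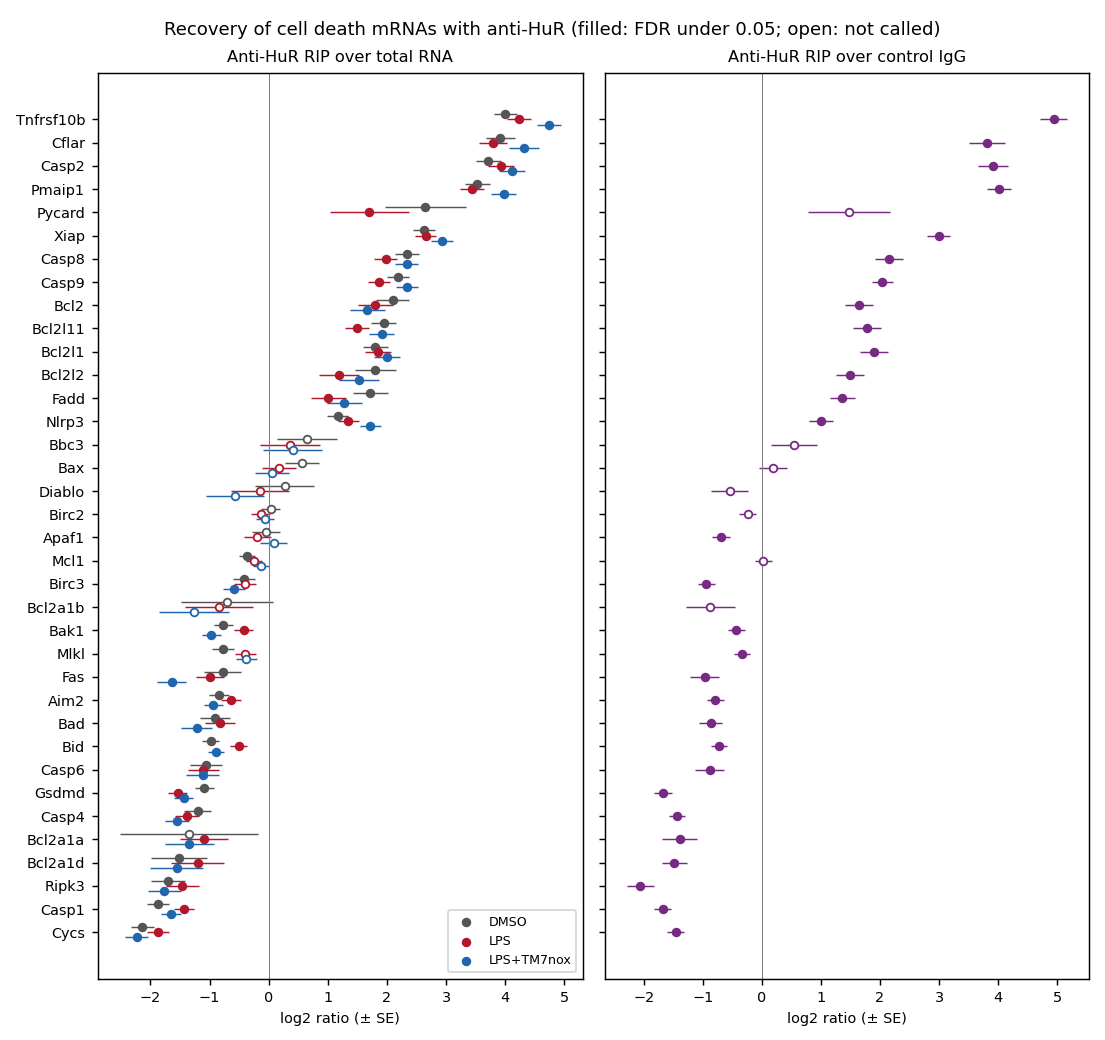
Log2 ratio with its standard error of anti-HuR RIP over total RNA in the 3 treatments (left) and of RIP over control IgG allowing for treatment (right), for 36 genes ordered by the DMSO value. Tnfrsf10b, Cflar, Casp2 and Pmaip1 lie above 3.4 in every treatment, Cycs and Casp1 lie below -1.4, and Fas lies lower in LPS+TM7nox (-1.64) than in DMSO (-0.78) (Pycard in LPS+TM7nox, with 0 RNA counts, is left off).

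Tnfrsf10b, low but detected in every library of total RNA, had the largest ratio in DMSO, although not apart from Cflar within their errors. In RIP it was at 99.4, 97.2, 92.2 and 77.7 CPM in DMSO, at 121, 123, 118 and 78.2 CPM in LPS and at 247, 221, 175 and 186 CPM in LPS+TM7nox. In total RNA it lay between 4.44 and 8.33 CPM over all 12 libraries, and in the 3 IgG libraries at 3.45, 3.10 and 6.36 CPM. All RIP libraries were therefore above all RNA and IgG libraries, with log2 ratios of 4.00 ± 0.20 over RNA in DMSO (FDR 5.76e-15) and 4.94 ± 0.23 over IgG (FDR 5.31e-12). Cflar was also high in RIP. It was at 588, 676, 798 and 929 CPM in RIP of DMSO cells, at 3004, 4801, 4162 and 3808 CPM in LPS and at 4039, 7443, 5608 and 9272 CPM in LPS+TM7nox. The DMSO RIP libraries lay below all RIP libraries with LPS, and those with and without TM7nox overlapped. Its IgG libraries, at 48.1, 366 and 370 CPM, compare with 50.2 to 64.2, 256 to 307 and 251 to 352 CPM in total RNA of the same treatments. The ratio to RNA was 3.92 ± 0.24 in DMSO, 3.79 ± 0.24 in LPS and 4.32 ± 0.25 in LPS+TM7nox (log2, n = 4 per group). Casp8 (2.34 ± 0.20) and Fadd (1.72 ± 0.30) were also high in DMSO. Fas, in contrast, was lower in RIP (-0.78 ± 0.31, FDR 0.0295), a call lost without RNA replicate 3 (FDR 0.101), without RIP replicate 4 (FDR 0.0801) or with DESeq2 (FDR 0.0732) and held in LPS (-0.99, FDR 0.000807).

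Casp2 ranked beside these genes. In RIP it was at 208, 202, 230 and 248 CPM in DMSO, 221, 248, 181 and 161 CPM in LPS and 204, 348, 206 and 274 CPM in LPS+TM7nox, whereas RNA libraries held 9.79 to 19.7 CPM. No RIP library overlapped RNA, and the log2 ratio was 3.71 ± 0.22 in DMSO (FDR 1.15e-13). Casp9 followed at 2.19 ± 0.19. The executioner Casp6 was lower in RIP (-1.06 ± 0.27, FDR 0.00102), and Apaf1 (-0.05) and Diablo (0.27) were not called. Cycs had the lowest ratio of all members at -2.13 ± 0.19 (FDR 2.31e-10). Its RIP libraries held 19.1 to 21.9 CPM in DMSO, 31.8 to 57.0 CPM with LPS alone and 22.1 to 28.6 CPM after LPS+TM7nox, each below every RNA library of the same treatment.

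The BCL2 family split within its own classes. Bcl2 (2.10 ± 0.28), Bcl2l1 (1.81 ± 0.22) and Bcl2l2 (1.80 ± 0.35) were high in RIP of DMSO cells, while Bcl2a1d (-1.52 ± 0.48, FDR 0.00636) and Mcl1 (-0.37 ± 0.14, FDR 0.0198) were low and Bcl2a1a and Bcl2a1b were not called. The Mcl1 call was lost with DESeq2 (FDR 0.104) and without RIP replicate 1 (FDR 0.0546) or RNA replicate 2 (FDR 0.0697), and Mcl1 was not called in LPS (-0.25, FDR 0.111; 0.0319 with a replicate block) or against IgG (0.03, FDR 0.886). Among BH3-only proteins, Pmaip1 (3.53 ± 0.21, FDR 1.49e-13) and Bcl2l11 (1.95 ± 0.21, FDR 1.28e-08) were high, Bid (-0.98 ± 0.14) and Bad (-0.91 ± 0.26) were low, and Bbc3 was not called (0.65, FDR 0.266; 0.028 with a replicate block). Bak1 was low (-0.77 ± 0.16) and Bax not called (0.56, FDR 0.0808; 0.0095 with a replicate block).

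Xiap was at 418, 466, 374 and 368 CPM in RIP of DMSO cells, at 595, 729, 588 and 548 CPM in LPS and at 525, 750, 614 and 634 CPM in LPS+TM7nox. No RNA library exceeded 111 CPM, and the log2 ratio in DMSO was 2.63 ± 0.18 (FDR 2.78e-12). Its relatives Birc2 (0.03, not called) and Birc3 (-0.42, FDR 0.0432) showed no such excess. The Birc3 call was lost without any 1 of RNA replicates 2, 3 and 4 and RIP replicates 1 and 4 (FDR 0.0768 to 0.143) and with DESeq2 (FDR 0.161), and in LPS Birc3 was not called (FDR 0.0534; 0.00325 with a replicate block). The necroptosis genes Ripk3 (-1.70 ± 0.29) and Mlkl (-0.77 ± 0.19, FDR 0.000758) were both low in RIP of DMSO cells. Mlkl was not called in LPS (-0.40, FDR 0.0574; 0.0411 with a replicate block) or in LPS+TM7nox (-0.38, FDR 0.0653; 0.0476 with a replicate block). Of the inflammasome genes, Nlrp3 (1.16 ± 0.18, FDR 3e-06) and Pycard (2.65 ± 0.68, FDR 0.00144) were high, and Casp1 (-1.88 ± 0.18), Casp4 (-1.20 ± 0.23), Gsdmd (-1.09 ± 0.16) and Aim2 (-0.84 ± 0.17) were low. Pycard was at 1.15, 4.40, 1.33 and 1.31 CPM in RIP of DMSO cells, so that replicate 2 stood alone, and without it the log2 ratio was 1.93 (FDR 0.0142).

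**Figure D4:**
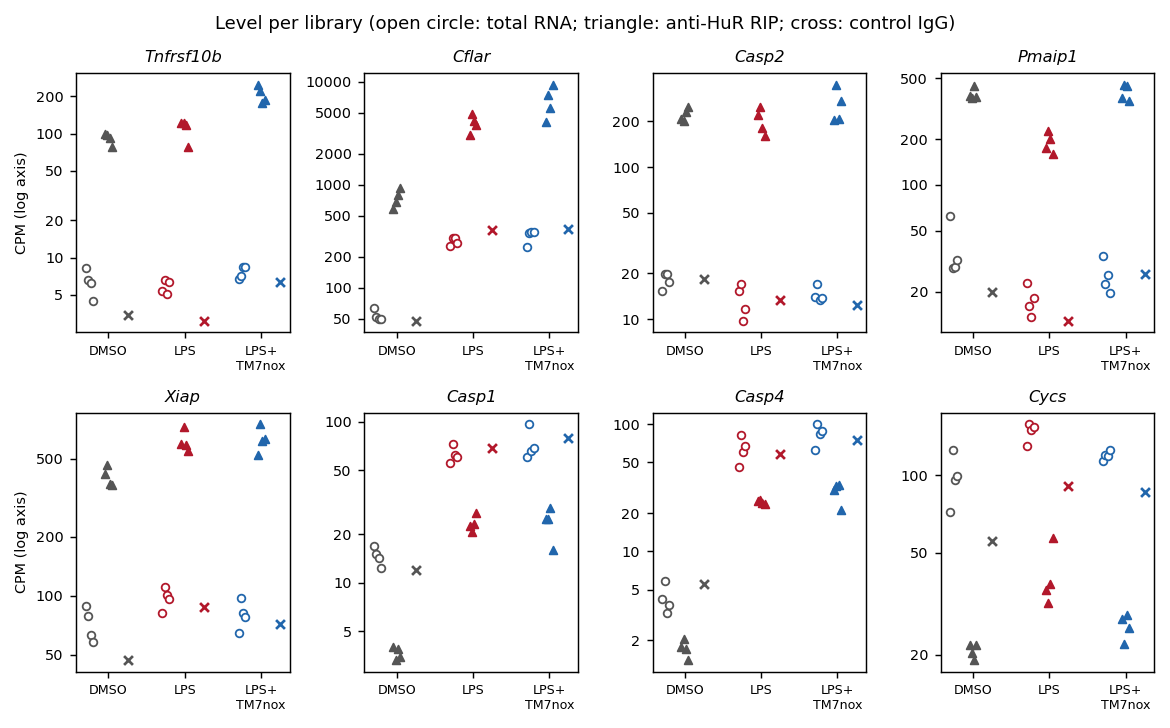
CPM on a log axis in every library of total RNA (open circles), anti-HuR RIP (triangles) and control IgG (crosses) for 8 genes by treatment. The triangles of Tnfrsf10b, Cflar, Casp2, Pmaip1 and Xiap lie above the circles and crosses, and those of Casp1, Casp4 and Cycs below them.

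RIP over RNA was also tested in the other treatments. In LPS 27 members differed between RIP and RNA (14 higher, 13 lower; 63.7% of all genes), and in LPS+TM7nox 28 did (14 higher, 14 lower; 69.9% of all genes). Against IgG, in a fit of 15 libraries that allowed for treatment, 29 members differed, 13 higher and 16 lower, against 68.1% of all genes. The RIP libraries are shared between these comparisons. The higher ones were 13 of the 14 high in DMSO, and the exception was Pycard (1.47, FDR 0.065). The Mlkl call against IgG (-0.34, FDR 0.0335) was lost in 11 of 19 alternatives, with FDRs up to 0.427. The Pycard call over RNA in LPS (log2 1.71, FDR 0.0291) was lost in 5 of 14 alternatives, among them leaving out RIP replicate 1 (FDR 0.0728) or 2 (0.142) or RNA replicate 3 (0.0878) or 4 (0.0875). There was 1 IgG library per treatment, all with replicate number 3, so a single treatment had no test against IgG.

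The 3′ UTRs of the recovered and depleted members are described here, and no test of a difference between them was made. The 14 genes higher in RIP of DMSO cells had 3′ UTRs of 693 to 5086 bases with a median of 2750, and the 15 lower ones had 113 to 3474 with a median of 530. These ranges overlapped. The 7 members not called had a median of 524 bases, and over 10995 coding genes tested the median was 1350 bases. The pentamer ATTTA was present in 14 of 14 higher genes and in 7 of 15 lower ones, against 73.5% of all genes. The nonamer TTATTTATT was in 4 of the 14 and in 3 of the 15, against 9.23% of all genes. A run of 7 T was present in 12 of the 14 and in 4 of the 15, against 47.9% of all. The median T content was 30.4% in the higher genes, 25.9% in the lower ones and 29.2% over all. T content did not follow the calls throughout, since the 7 members not called had the highest median at 33.8%. Among these 7, ATTTA was in 3, TTATTTATT in 0 and a run of 7 T in 2. Longer UTRs hold more matches by their length alone, and Cflar (4966 bases, 13 ATTTA) and Xiap (4680 bases, 16 ATTTA) were among the longest. Nlrp3 (693 bases, 5 ATTTA) and Casp8 (749 bases, 3 ATTTA) were high with short UTRs. Cycs (2676 bases, 8 ATTTA) was low in RIP with a long UTR that holds these letters. Birc3 (3474 bases, 9 ATTTA) and Mcl1 (2353 bases, 8 ATTTA) were called only slightly lower, by calls that did not hold in the alternatives named above. These features are a description of 1 canonical transcript per gene, and which transcript the cells used was not tested.

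**Figure D5:**
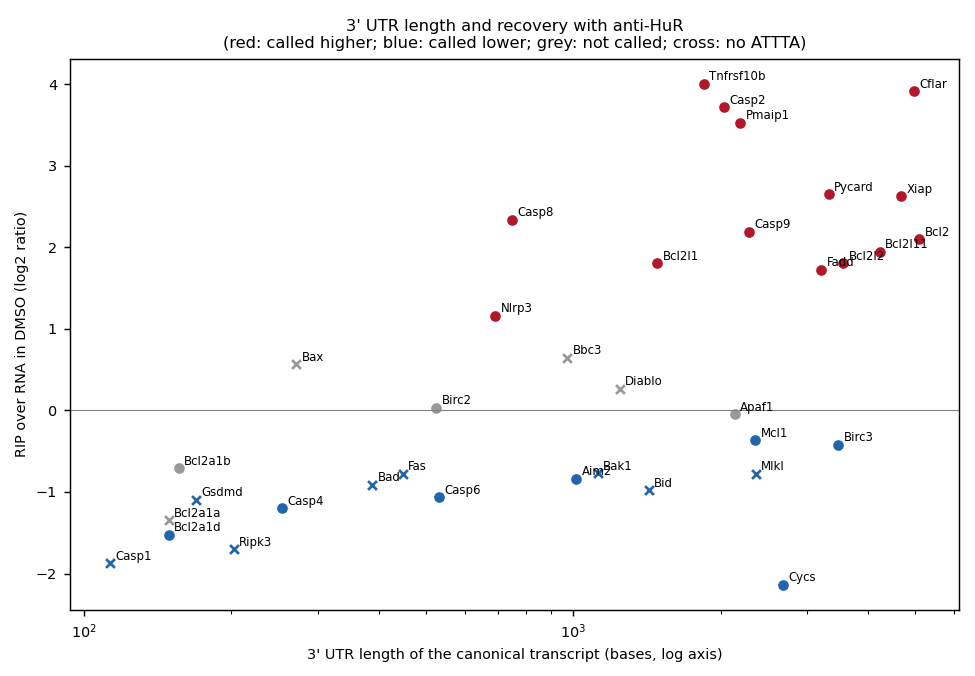
Log2 ratio of anti-HuR RIP over total RNA in DMSO against the length of the 3′ UTR (bases, log axis) for 36 genes, coloured by call and with crosses for genes without ATTTA. All points above 1 on the vertical axis have UTRs of at least 693 bases and hold ATTTA, while Cycs at 2676 bases lies lowest.

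LPS also changed the members' levels in RIP. It changed 25 of 36 members in RIP, 21 higher and 4 lower, against 44.7% of all genes tested (23.5% higher and 21.2% lower). The largest fitted rises were those of Bcl2a1a (7.55 ± 0.53), Fas (5.68 ± 0.36), Bcl2a1d (4.02 ± 0.31) and Casp4 (3.79 ± 0.19). Bcl2a1a was at 0 to 0.0661 CPM in RIP of DMSO cells and passed the filter on low counts only through the groups with LPS. Its fold is therefore not an exact size. Fadd fell by 1.34 (SE 0.21, FDR 9.05e-05) in RIP. The change of the RIP over RNA ratio by LPS, the interaction, was called for 0 of 36 members by edgeR and 0 by DESeq2. Of all genes, edgeR called 0.0419% and DESeq2 0.461%. At an unadjusted p under 0.05 there was 1 member in each. The edgeR member was Bid (0.47 ± 0.20, FDR 0.631). For Fadd the interaction was -0.71 ± 0.42 (FDR 0.774), so its fall in RIP was not shown to differ from that in RNA.

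TM7nox on top of LPS changed 6 of 36 members in RIP, 2 higher and 4 lower, against 16.2% of all genes (8.64% higher and 7.61% lower). Pmaip1 and Tnfrsf10b rose, and Fas, Bad, Bak1 and Cycs fell. Pmaip1 was at 385, 369, 443 and 374 CPM in RIP of DMSO cells, at 174, 225, 201 and 161 CPM in LPS and at 374, 452, 443 and 353 CPM in LPS+TM7nox. The LPS libraries lay below both other groups without overlap, and the log2 change for TM7nox was 1.05 ± 0.16 (FDR 0.000496). The rise of Tnfrsf10b was 0.87 ± 0.19 (FDR 0.00492), again without overlap of the libraries given above. Fas was at 48.9, 49.1, 39.6 and 34.5 CPM in RIP of LPS cells and at 18.6, 12.5, 16.0 and 10.4 CPM with TM7nox. The groups were apart and the change was -1.62 ± 0.29 (FDR 0.00141), beside -0.94 in total RNA. Bak1 (-0.70 ± 0.17, FDR 0.0106), Cycs (-0.69 ± 0.18, FDR 0.0166) and Bad (-0.80 ± 0.23, FDR 0.0289) also fell.

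The calls for Bad and Cycs in RIP did not hold when single libraries were left out, although the direction stayed. That of Cycs was lost without LPS replicate 4 (log2 -0.47, FDR 0.0616) or LPS+TM7nox replicate 2 (-0.60, FDR 0.0599). That of Bad was lost without any 1 of LPS replicates 1, 3 and 4 and LPS+TM7nox replicates 2 and 4 (log2 -0.63 to -0.79, FDR 0.0558 to 0.0923). With a replicate block 33.6% of all genes were called rather than 16.2%, and 20 members rather than 6, among them Bbc3 (1.33, FDR 4.61e-05), Cflar (0.65, FDR 0.00997), Bcl2l11 (0.57, FDR 0.0111), Casp9 (0.50, FDR 0.00714) and Bcl2a1d (-0.74, FDR 0.00117).

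Whether TM7nox changed recovery beyond the RNA level was tested directly, and no member passed. The interaction was called for 0 of 36 members by edgeR and 0 by DESeq2, against 0.00699% and 0.021% of all genes. At an unadjusted p under 0.05 there were 2 members (DESeq2 3, edgeR with a replicate block 8). The edgeR members were Bak1 and Pycard, the latter with 0 RNA counts in LPS+TM7nox. The values were 0.50 ± 0.25 for Tnfrsf10b, 0.54 ± 0.27 for Pmaip1, 0.53 ± 0.30 for Cflar, -0.66 ± 0.34 for Fas and -0.55 ± 0.22 for Bak1 (log2, each with FDR 0.871). With a replicate block none was called either, and the FDRs of these 5 genes were 0.369 to 0.432. In same-numbered libraries, the ratio of RIP to RNA moved one way from LPS to LPS+TM7nox in 4 of 4 pairs for 17 of 35 members with RNA counts in all 8 libraries, 10 upward and 7 downward, beside 32.9% of 12176 genes. Pmaip1 went from 7.57, 13.9, 14.7 and 8.89 in LPS (CPM in RIP over CPM in RNA) to 10.9, 20.1, 17.3 and 17.9 with TM7nox. Cflar, Casp8, Nlrp3 and Bcl2l11 were also higher in 4 of 4 pairs, Fas and Bak1 were lower in 4 of 4, and Tnfrsf10b was higher in 3 of 4. So the RIP changes of Pmaip1 and Tnfrsf10b were not shown to differ from their changes in total RNA, which were 0.53 (FDR 0.243) and 0.38 (FDR 0.247).

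A list of 52 other genes of these pathways, of which 44 were tested, is set beside the members. Like the members, it was chosen with earlier results of these data known. LPS raised 14 and lowered 8 of them in total RNA, which is 50% beside 42.0% of all genes (20.2% higher and 21.7% lower). The TRAIL ligand Tnfsf10 (log2 5.07 ± 0.29), the NF-κB inhibitor Tnfaip3 (4.79 ± 0.25), the nucleic acid sensor Zbp1 (4.26 ± 0.49), which activates RIPK3, and the caspase 1 substrate Il18 (3.35 ± 0.20) rose most. The BH3-only gene Bmf (-3.01 ± 0.77), Nlrp10 (-3.98 ± 0.56) and Birc5, which encodes survivin (-1.48 ± 0.25), fell. TM7nox changed 15.9% of the 44 in RNA, beside 13.8% of all genes. It raised Ninj1 (0.93 ± 0.12), Mdm2 (0.68 ± 0.13) and Bnip3l (0.65 ± 0.17) over LPS and lowered Tnfaip3 (-1.19 ± 0.21), Birc5 (-0.93 ± 0.25), Cgas (-0.69 ± 0.14) and Il18 (-0.69 ± 0.17). Ninj1 encodes the protein that ruptures the plasma membrane in lytic death, and Mdm2 is a target and inhibitor of p53.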

How the data were processed

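The authors deposited raw counts, whole numbers of reads per Ensembl gene and library, with no normalization. Per the labels' protocols, libraries were made with a stranded SMART-Seq kit. FastQC 0.11.9, STAR, HTSeq and DESeq2 and the build GRCm39 are named in the submitters' processing notes, without role or order. The sources used here give neither the annotation release nor the use of strand in counting.

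Samples were grouped by their labels. Counts were tested with edgeR 4.0.16 (R 4.3.3) by two-sided quasi-likelihood F tests with TMM scaling, filterByExpr (minimum count 10) and Benjamini-Hochberg adjustment over all genes tested. The 12 RNA libraries, the 12 RIP libraries, both together (24) and RIP with IgG (15) were fitted separately. DESeq2 1.42.0, upper-quartile scaling, no filter, a replicate block, replicates 1 and 2 or 3 and 4 alone, and leaving out each library were tried. No 2 replicates agreed within sampling noise (chi-square per gene at least 38.0). Same-numbered libraries deviated together in the 8 pairs of groups compared here (correlations 0.322 to 0.758 over 8631 genes), and the labels give those numbers. Different-numbered libraries gave -0.62 to 0.589. For RNA LPS with RNA DMSO they reached 0.31, close to the lowest same-numbered value of 0.322. All 37 members matched GENCODE M39 on GRCm39, the source of 3′ UTRs and exon lengths, and promoters are RefSeq's on GRCm38.p6. Scripts were tested on simulated data.

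The members and gene lists were chosen with earlier results of these data known. All members are named. Values per library are given for members called in RNA for LPS+TM7nox against LPS or in an interaction, or among the 2 with the largest change by LPS in their role, and for examples in RIP. Other pathway genes are named where called, with 1 log2 unit or more for LPS. Depth limits Pycard, Bik and Diablo, whose counts are low. Reads carry no stated molecular identifiers.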

Additional observations from a re-analysis of the deposited data

Results flagged for a closer look

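Of 215 groups of 4 libraries, 15 had a library whose gap to its nearest neighbour took most of the range of the group. Chance gives such a gap in about 1 in 20 groups. In RNA DMSO replicate 1, the shallowest library (2728534 counts), 7 genes stood apart from the other 3 libraries. Aim2 (19.5 CPM), Bcl2 (1.48), Bcl2l2 (0) and Birc3 (13.6) were low there, and Cflar (64.2), Gsdmd (44.1) and Pmaip1 (63.0) were high. Without that library 26 members were called for LPS against DMSO, rather than 22, and 44.0% of all genes rather than 42.0%. In RNA LPS+TM7nox replicate 1, Birc3 (38.3 CPM) and Cflar (251) were low. In RIP of LPS+TM7nox cells, Bcl2 was high in replicate 2 (6.23 CPM), Bcl2a1d was high in replicate 3 (61.6) and Mlkl was low in replicate 1 (84.5). In RIP of LPS cells, Bid was low in replicate 2 (32.3 CPM) and Tnfrsf10b was low in replicate 4 (78.2). Pycard was high in RIP DMSO replicate 2 (4.40 CPM, against 1.15 to 1.33 in the others).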

How the results depend on the processing

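No call of a member reversed its direction in any alternative run. For TM7nox in RIP, the count of 6 became 10 with DESeq2, 20 with a replicate block, 3 with replicates 1 and 2 and 2 with replicates 3 and 4, while the share of all genes went from 16.2% to 20.9%, 33.6%, 5.59% and 7.87%. For TM7nox in RNA, the count of 7 became 12 with a replicate block, 0 with replicates 1 and 2 (7 at an unadjusted p under 0.05) and 14 with replicates 3 and 4, while the share of all genes went from 13.8% to 25%, 1.35% and 27.9%. For LPS+TM7nox against DMSO in RNA, the count of 23 became 15 with replicates 1 and 2 (all genes, 47.3% to 18%). The block moved no other count by over 1.5 times, and the cause of these shifts was not tested. Leaving out 1 library gave 20 to 26 calls for LPS in RNA, 5 to 6 for TM7nox in RNA, 21 to 25 for LPS+TM7nox against DMSO, 23 to 25 for LPS in RIP and 4 to 9 for TM7nox in RIP. It gave 27 to 30 for RIP over RNA in DMSO, 24 to 29 in LPS, 28 to 30 in LPS+TM7nox, 27 to 30 against IgG and 0 for both interactions. Calls present in every alternative numbered 15 of 22 for LPS in RNA, 0 of 7 for TM7nox in RNA, 20 of 25 for LPS in RIP, 1 of 6 (Fas) for TM7nox in RIP, 23 of 29 for RIP over RNA in DMSO and 27 of 29 against IgG. Upper-quartile scaling moved the median of all genes for LPS in RIP from -0.00 to -0.25, and DESeq2 moved that for RIP over RNA in DMSO from 0.04 to 0.19, in LPS from -0.06 to 0.11, in LPS+TM7nox from -0.09 to 0.13, and against IgG from -0.00 to 0.13. The Bcl2a1b value moved from 3.28 to 2.64 for LPS+TM7nox against DMSO without LPS+TM7nox replicate 4, and from 3.08 to 2.44 for LPS in RIP without LPS replicate 4.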

Other observations

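Among the 52 other pathway genes, RIP over RNA in DMSO cells was higher for 15 and lower for 21 of the 44 tested, against 70.4% of all genes called in either direction. Of those that responded to LPS by at least 1 log2 unit in RNA, Gsdme, a gasdermin, had a log2 ratio of 5.18 ± 0.48. Tnfsf10 followed at 3.60 ± 0.38 and Nek7, a partner of NLRP3, at 3.47 ± 0.22. Sting1 (-1.72 ± 0.35), Il18 (-1.17 ± 0.25) and Naip2 (-0.91 ± 0.16) were lower in RIP. Both the TRAIL ligand gene Tnfsf10 and the receptor gene Tnfrsf10b were thus high in RIP, while Fas was low.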
